A study of Mus musculus with 9 samples.

Results

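The IL-6 family genes described here are 4 ligands (Il6, Lif, Il11 and Clcf1) and 5 receptor chains (Il6st, Lifr, Osmr, Il6ra and Il11ra1), chosen by gene symbol from the deposited count table. All 9 were among its 17156 gene symbols, and all 9 were among the 13613 that passed the filter on low counts. RNA of mouse stellate cells, the resident mesenchymal cells of the pancreas that lay down matrix in injury and cancer, had been sequenced after 4 days in 1 of 3 media. In CM-JAKi the cells received medium conditioned by pancreatic tumour organoids together with 500 nM AZD1480, an inhibitor of JAK kinases. In CM they received the conditioned medium alone, and in MG-CM the control medium, DMEM with 5% FBS, which the labels also call Matrigel-conditioned. Each group had 3 libraries of wild-type C57BL/6J cells, with PSC4 as the line of replicate 1, PSC5-I as that of replicate 2 and PSC5-II as that of replicate 3 (both called PSC5 here). Each replicate number had its own source of conditioned medium, so line and source change together. Counted as PSC4 and PSC5, the 3 replicates rest on 2 lines.

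Cytokines of the IL-6 family share 1 signalling chain, gp130, which Il6st encodes. IL-6 and IL-11 first bind a private receptor chain (from Il6ra and Il11ra1) that carries the ligand to gp130, whereas LIF binds a pair of gp130 with the LIF receptor (Lifr), and CLCF1 acts through gp130, the LIF receptor and a further private chain, the CNTF receptor. The oncostatin M receptor (Osmr) pairs with gp130 to bind oncostatin M. The chains gp130, LIF receptor and oncostatin M receptor carry JAK kinases, which phosphorylate STAT3. In turn STAT3 switches on target genes that include the feedback inhibitor Socs3. In pancreatic tumours, fibroblasts are known as a source of IL-6 and LIF.

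The libraries held 25625806 to 32466018 counts. The unit of level is CPM, in which counts are scaled to the TMM-adjusted library total, and changes are log2 fold changes ± standard error from edgeR, the first-named group over the second. A gene was called at an adjusted p under 0.05 in edgeR's quasi-likelihood F-test, adjusted by the Benjamini-Hochberg method over all genes tested. Libraries of the same replicate number share a cell line, so a second edgeR fit held the replicate number as a block, and its values stand beside a result whose call it changed. Of markers of stellate cells and fibroblasts 9 of 9 were detected, summing to 6931 to 7543 CPM in CM-JAKi, 3531 to 5530 CPM in CM and 5687 to 6520 CPM in MG-CM, although desmin (Des), a classical stellate marker, lay at 0.924 to 3.32 CPM over the 9 libraries. The markers did not all move together. Acta2 averaged 405 ± 164 CPM in CM-JAKi, 71.7 ± 54.5 CPM in CM and 513 ± 217 CPM in MG-CM. Thy1 averaged 44.1 ± 9.56, 60.0 ± 21.3 and 44.3 ± 11.1 CPM in the same groups (SD, n = 3). Markers of epithelial cells summed to 12.7 to 31.3 CPM in CM-JAKi, 17.0 to 23.3 CPM in CM and 18.3 to 23.0 CPM in MG-CM, and of leukocytes to 3.05 to 4.45, 3.55 to 4.13 and 2.95 to 4.02 CPM in the same groups. The defining epithelial genes Epcam and Cdh1 were at most 0.180 and 0.209 CPM, and the leukocyte gene Ptprc at most 0.0387 CPM. Most of the epithelial sum came from Krt19, which averaged 14.5 ± 10.3 CPM in CM-JAKi, 3.08 ± 3.04 CPM in CM and 8.19 ± 3.65 CPM in MG-CM, and Muc1, which averaged 3.76 ± 2.55, 13.4 ± 2.71 and 10.1 ± 4.93 CPM in the same groups (SD, n = 3), so the means of these 2 genes stood in opposite order. The endothelial markers summed to 7.97 to 15.7 CPM in CM-JAKi, 2.17 to 2.64 CPM in CM and 4.85 to 6.10 CPM in MG-CM. Among them Emcn averaged 7.54 ± 4.75, 0.0109 ± 0.0189 and 0.790 ± 0.225 CPM in the same groups (SD, n = 3). Pecam1 and Cdh5 were at most 0.527 and 0.521 CPM. The acinar markers summed to 5.60 to 7.81, 9.57 to 14.0 and 7.27 to 8.45 CPM, nearly all from Cela1. The part of these markers in the results was not tested.

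CM was set against MG-CM to ask what conditioned medium does to the family, and CM-JAKi against CM to ask what the JAK inhibitor does in that medium. Stellate cells in CM held more mRNA of every one of the 4 ligands than cells in MG-CM, in 3 of 3 same-numbered pairs, whereas the private receptor chains Il6ra and Il11ra1 were lower in 3 of 3 pairs. With the inhibitor Clcf1, Il6st and Osmr fell and Il11ra1 rose, relative to CM alone. Il6 and Il11 were lower with it in 3 of 3 pairs, whereas Lif was lower in 2 of 3 pairs and differed by less than the spread between replicates.

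Of the 9 genes, edgeR called 3 between CM and MG-CM, against 10.2% of all genes tested, with 2 higher and 1 lower, against 4.85% and 5.39%. The block called 7, against 24.4%, with 5 higher and 2 lower, against 11.6% and 12.8%, and DESeq2 likewise 5 and 2, against 8.23% and 8.94% (17.2% in both directions). Between CM-JAKi and CM edgeR called 4, against 19.0%, with 1 higher and 3 lower, against 10.1% and 8.93%. The block called 6, against 34.2%, with 1 higher and 5 lower, against 18.6% and 15.6%, and DESeq2 2 and 5, against 12.1% and 11.7% (23.8% in both directions). Between CM-JAKi and MG-CM edgeR called 0, against 1.01% (0.286% higher and 0.720% lower), and the unadjusted p was under 0.05 for 2 higher and 4 lower, against 5.36% and 5.31%. There the block called 0 higher and 2 lower, against 1.85% and 2.40% (4.25% in both directions), and DESeq2 2 and 2, against 1.37% and 2.19% (3.56% in both directions). At an unadjusted p under 0.05 edgeR had 5 higher and 2 lower between CM and MG-CM, against 13.9% and 14.4% of all genes, and 2 higher and 6 lower between CM-JAKi and CM, against 18.2% and 16.2%. Since the genes come from bulk RNA, fewer cells that make a transcript and less of it per cell cannot be told apart.

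Il6 encodes interleukin 6. It stood at 9.27, 0.928 and 1.32 CPM in CM-JAKi replicates 1, 2 and 3, at 28.3, 4.24 and 16.9 CPM in CM, and at 2.61, 1.66 and 2.61 CPM in MG-CM. Every CM library was above every MG-CM library, and replicate 1 was the highest in both groups that received conditioned medium. Between CM and MG-CM the log2 fold change was 2.84 ± 0.94, which missed the threshold (edgeR adjusted p = 0.0889) and passed it with the block (2.52, adjusted p = 0.0224), without CM-JAKi replicate 1 (2.84, adjusted p = 0.0295) or in DESeq2 (adjusted p = 0.0265). Of the 9 fits without 1 library, edgeR called this rise in 1 (adjusted p up to 0.253). With the inhibitor Il6 was lower than in CM in 3 of 3 pairs, by 1.60, 2.12 and 3.61 on the log2 scale, with a log2 fold change of -2.09 ± 0.90 (edgeR adjusted p = 0.137, 0.0202 with the block). The CM-JAKi library of replicate 1 alone lay above the lowest CM library. Without that library the change was -3.88 and was called (edgeR adjusted p = 0.0175), the 1 call among the 9 fits without 1 library. Without CM replicate 1 the change was -1.46 (edgeR adjusted p = 0.360), and DESeq2 with all libraries did not call it (adjusted p = 0.102). Against MG-CM, Il6 in CM-JAKi was higher in PSC4 and lower in both PSC5 pairs, with a log2 fold change of 0.75 ± 0.91 (edgeR adjusted p = 0.874).

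Il11 encodes interleukin 11, known in fibroblasts for promoting matrix production. It had the largest fold change of the 9 genes between CM and MG-CM. Its levels were 2.34, 0.868 and 0.735 CPM in CM-JAKi, 12.4, 1.70 and 3.84 CPM in CM, and 0.137, 0.406 and 0.568 CPM in MG-CM. The MG-CM values rest on 4, 12 and 15 counts, the fewest of the 9 genes. Il11 rose in CM by 4.01 ± 0.87 on the log2 scale (edgeR adjusted p = 0.0257), higher in 3 of 3 pairs, and without CM replicate 1 the change was 2.90 with the call lost (edgeR adjusted p = 0.056). Without MG-CM replicate 1, 2 or 3 the adjusted p from edgeR was 0.0696, 0.104 or 0.0601. With the inhibitor it was lower in 3 of 3 pairs, with a log2 fold change of -2.18 ± 0.77 (edgeR adjusted p = 0.0809, or 0.0429 with the block and 0.0439 when CM replicate 2 was left out, and DESeq2 adjusted p = 0.0183). Of the 9 fits without 1 library, edgeR called this fall in 1 (adjusted p up to 0.319). All 3 CM-JAKi libraries stayed above all 3 MG-CM libraries, with a log2 fold change of 1.83 ± 0.86 (edgeR adjusted p = 0.504).

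Lif encodes leukemia inhibitory factor. It measured 34.6, 9.78 and 16.7 CPM in CM-JAKi, 42.6, 8.71 and 20.3 CPM in CM, and 4.12, 5.14 and 6.82 CPM in MG-CM. Both groups in conditioned medium lay wholly above MG-CM, and between them the libraries of each replicate number were close. Between CM and MG-CM the log2 fold change was 2.15 ± 0.61 (edgeR adjusted p = 0.0592, 0.0301 with the block), and it was also called without CM-JAKi replicate 1 (adjusted p = 0.0431) or CM replicate 2 (adjusted p = 0.0329) and by DESeq2 (adjusted p = 0.00132). Of the 9 fits without 1 library, edgeR called this rise in those 2 alone (adjusted p up to 0.181). Between CM-JAKi and CM it was -0.23 ± 0.58 (edgeR adjusted p = 0.814), with a 95% interval of -1.54 to 1.09, and 1 of 3 pairs was higher and 2 lower. The interval holds both a fall and a rise of 2-fold. Against MG-CM, Lif in CM-JAKi was higher in 3 of 3 pairs with a log2 fold change of 1.93 ± 0.61, which edgeR did not call with or without the block (adjusted p = 0.264, 0.109 with the block) and DESeq2 called (adjusted p = 0.0176).

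Clcf1 encodes cardiotrophin-like cytokine factor 1. It was the steadiest of the ligands, at 24.6, 22.9 and 18.4 CPM in CM-JAKi, 42.3, 34.8 and 39.4 CPM in CM, and 27.7, 25.8 and 27.2 CPM in MG-CM. The 3 groups did not overlap, with CM-JAKi the lowest and CM the highest. The difference of CM-JAKi from MG-CM was -0.29 ± 0.12 on the log2 scale. It was not called by edgeR (adjusted p = 0.428, 0.179 with the block) or by DESeq2 (adjusted p = 0.338). Clcf1 rose in CM by 0.53 ± 0.12 over MG-CM (edgeR adjusted p = 0.0302) and fell in CM-JAKi by 0.82 ± 0.12 from CM (edgeR adjusted p = 0.00402). Leaving out any single library did not end the call of the fall (edgeR adjusted p = 0.00572 to 0.0177). The rise lost it without CM-JAKi replicate 2 (0.0505), CM replicate 1 (0.0908) or 3 (0.0704), or MG-CM replicate 1 (0.0595), 2 (0.118) or 3 (0.0755), all edgeR adjusted p.

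**Figure D1:**
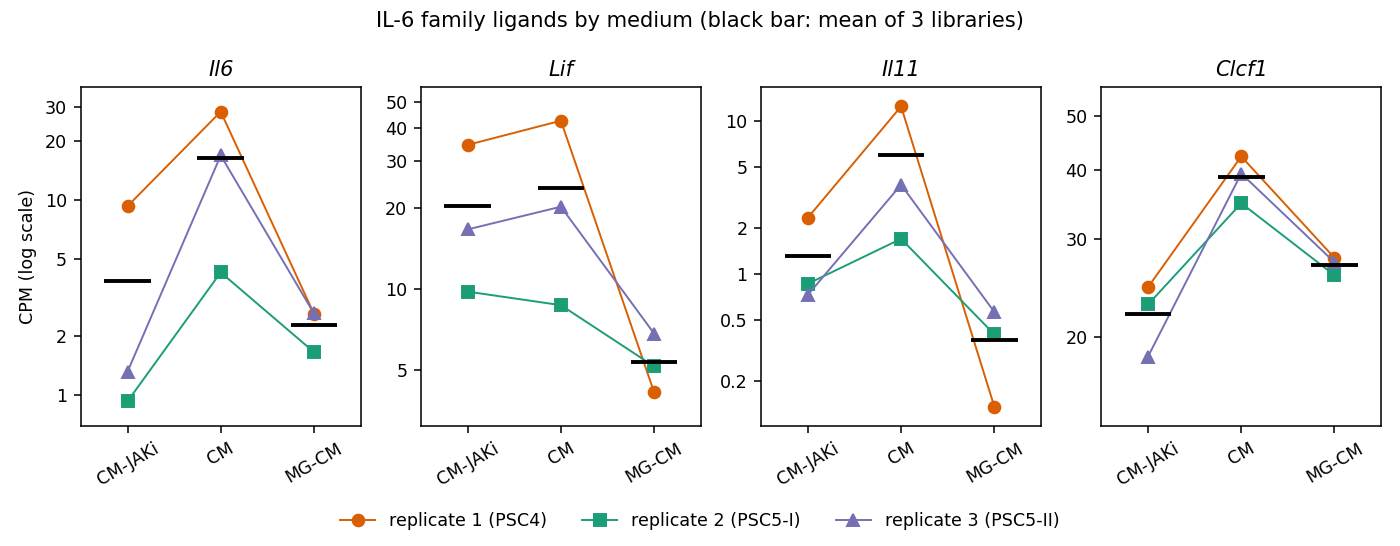
Level of each ligand in CPM (log axis, a separate range per gene) in the 9 libraries, with groups along the horizontal axis, lines joining libraries of the same replicate number and black bars for the mean of 3 libraries. In CM every ligand lies above MG-CM in each pair, and with the inhibitor Il6, Il11 and Clcf1 lie below CM in each pair while Lif lies close to CM.

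Promoter sequences were available for Il6, Lif and Il11, but not for Clcf1, the ligand with the smallest fold in CM. The sequences are shown so that the letters common to them can be read beside the levels of these genes. They are the 250 bases before the transcription start in RefSeq (build GRCm38.p6), written 5′ to 3′ on the strand of the gene. They come from chr5:30012864-30013113 (plus strand) for Il6, chr11:4257318-4257567 (plus strand) for Lif and chr7:4778142-4778391 (minus strand) for the second of the 2 starts of Il11. That window was picked because it held a match, and the window of the first start held none of the motifs searched. Capitals mark matches to TGANTCA, the letters bound by AP-1 factors, or to an NF-kB-like motif (GGG, any 2 bases, then TTTCC), searched on both strands. The motifs did not overlap.
Il6: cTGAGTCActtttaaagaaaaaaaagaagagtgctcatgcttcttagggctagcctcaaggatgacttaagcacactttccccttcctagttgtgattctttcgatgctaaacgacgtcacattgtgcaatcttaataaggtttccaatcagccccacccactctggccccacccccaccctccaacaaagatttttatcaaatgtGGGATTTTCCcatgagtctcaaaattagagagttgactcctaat
Lif: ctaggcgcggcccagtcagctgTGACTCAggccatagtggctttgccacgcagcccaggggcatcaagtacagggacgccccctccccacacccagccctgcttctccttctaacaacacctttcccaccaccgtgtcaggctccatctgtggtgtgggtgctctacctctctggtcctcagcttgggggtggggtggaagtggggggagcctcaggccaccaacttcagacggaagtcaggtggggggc
Il11: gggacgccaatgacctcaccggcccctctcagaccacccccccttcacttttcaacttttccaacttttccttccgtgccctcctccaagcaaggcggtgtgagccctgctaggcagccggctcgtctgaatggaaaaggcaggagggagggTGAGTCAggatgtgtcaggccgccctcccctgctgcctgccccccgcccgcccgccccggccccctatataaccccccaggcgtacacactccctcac
Il6 held TGAGTCA starting 249 bases and GGGATTTTCC starting 44 bases before the start, Lif held TGACTCA at 228 bases, and Il11 held TGAGTCA at 98 bases. The 8 members that matched the table, all but Clcf1, had 11 windows. The AP-1 letters were in 3 of the 4 windows of ligands and 0 of the 7 of receptors, against 6.75% of all 32851 windows in the table, and the NF-kB-like letters in 1 of the 11, against 1.41%. The STAT letters TTCNNNGAA, present in 7.02% of all windows, were in 0 of the 11. A match is a run of letters and was not tested for binding.

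Il6st encodes gp130, the chain that every ligand above needs. It stood at 452, 402 and 432 CPM in CM-JAKi, 595, 618 and 722 CPM in CM, and 760, 568 and 692 CPM in MG-CM. The CM and MG-CM libraries overlapped (log2 fold change -0.06 ± 0.13, edgeR adjusted p = 0.802). All 3 CM-JAKi libraries lay below all others. Il6st fell in CM-JAKi by 0.59 ± 0.13 from CM (edgeR adjusted p = 0.0181), and without CM-JAKi replicate 2 the call was lost (edgeR adjusted p = 0.0769). Without CM-JAKi replicate 3 it was lost too, at an edgeR adjusted p of 0.050, just over the threshold. Against MG-CM the log2 fold change was -0.65 ± 0.13, which missed the threshold (edgeR adjusted p = 0.0659) and passed it with the block (0.0243), with a term for the cell line (0.0310) and in DESeq2 (adjusted p = 8.64e-05).

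Osmr encodes the oncostatin M receptor. It was at 393, 314 and 286 CPM in CM-JAKi, 653, 652 and 711 CPM in CM, and 572, 466 and 518 CPM in MG-CM. The 3 groups did not overlap and stood in the same order as for Clcf1. Osmr fell in CM-JAKi by 1.02 ± 0.14 from CM (edgeR adjusted p = 0.00247), a call that no single library left out ended (edgeR adjusted p = 0.0024 to 0.0171). In CM it was above MG-CM by 0.37 ± 0.14 in 3 of 3 pairs, which was not called (edgeR adjusted p = 0.113). It was called with the block (edgeR adjusted p = 0.050, just under the threshold), with a term for the cell line (0.0417), without all of replicate 1 (0.0336) and by DESeq2 (adjusted p = 0.0435). In CM-JAKi it was below MG-CM with a log2 fold change of -0.65 ± 0.14 (edgeR adjusted p = 0.0718, 0.0283 with the block, 0.0354 without CM-JAKi replicate 1, and DESeq2 adjusted p = 0.000204). Of the 9 fits without 1 library, edgeR called Osmr in 0 in CM over MG-CM and in 1 in CM-JAKi over MG-CM.

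Lifr encodes the LIF receptor. Its level in CM relative to MG-CM lay on opposite sides in PSC4 and in PSC5. Its levels were 371, 238 and 259 CPM in CM-JAKi, 374, 549 and 488 CPM in CM, and 592, 355 and 389 CPM in MG-CM. In PSC4 (replicate 1) CM was below MG-CM and CM-JAKi was close to CM. In both PSC5 pairs CM was above MG-CM and CM-JAKi was the lowest. Over all 9 libraries edgeR with groups alone called no change of Lifr (CM over MG-CM 0.08 ± 0.24, adjusted p = 0.868, CM-JAKi over CM -0.70 ± 0.24, adjusted p = 0.0769, CM-JAKi over MG-CM -0.62 ± 0.24, adjusted p = 0.39). Lifr was called lower in CM-JAKi than in CM by DESeq2 (adjusted p = 0.0209), by edgeR with a term for the cell line (0.0366) and by edgeR without CM-JAKi replicate 1 (0.0411) or MG-CM replicate 1 (0.0444), and not with the block (0.0517). Of the 9 fits without 1 library, edgeR called this fall in those 2 alone (adjusted p up to 0.234). In the PSC5 libraries alone Lifr rose in CM by 0.48 ± 0.11 over MG-CM (edgeR adjusted p = 0.0317), and fell in CM-JAKi by 1.05 ± 0.11 from CM (edgeR adjusted p = 0.00147) and by 0.58 ± 0.11 from MG-CM (edgeR adjusted p = 0.0368). That fit leaves out the PSC4 pair, already seen to run the other way in CM over MG-CM, so it is not independent support. Without all of replicate 2 instead, the change in CM over MG-CM was -0.18 (edgeR adjusted p = 0.811). The response to CM in PSC4 minus that in PSC5 was -1.14 ± 0.18 on the log2 scale, and edgeR's test of this interaction gave an adjusted p of 0.0833 (0.000433 unadjusted).

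Il6ra encodes the private chain of the IL-6 receptor. It was at 22.7, 19.7 and 20.9 CPM in CM-JAKi, 9.94, 18.6 and 13.9 CPM in CM, and 26.6, 21.9 and 22.2 CPM in MG-CM. CM lay below both other groups, farthest in replicate 1, where the ligands were highest. Between CM and MG-CM the log2 fold change was -0.74 ± 0.20 (edgeR adjusted p = 0.0522, or 0.0464 with the block and 0.0231 when CM replicate 2 was left out, and DESeq2 adjusted p = 0.00842). Between CM-JAKi and CM it was 0.58 ± 0.20, higher in 3 of 3 pairs but by 0.08 in PSC5-I, and edgeR did not call it with or without the block (adjusted p = 0.077, 0.0747 with the block). DESeq2 called it (adjusted p = 0.0422), as did edgeR without CM replicate 2 (adjusted p = 0.0228), and between CM-JAKi and MG-CM the groups overlapped (edgeR adjusted p = 0.88). In CM over MG-CM and in CM-JAKi over CM, edgeR called Il6ra in 1 of 9 fits without 1 library (adjusted p up to 0.132 and 0.162).

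Il11ra1 encodes the private chain of the IL-11 receptor. It stood at 148, 130 and 123 CPM in CM-JAKi, 48.1, 61.5 and 67.1 CPM in CM, and 91.2, 99.3 and 79.6 CPM in MG-CM. The 3 groups did not overlap, and their order was the opposite of that of Clcf1 and Osmr. Il11ra1 fell in CM by 0.61 ± 0.14 from MG-CM (edgeR adjusted p = 0.0289) and rose in CM-JAKi by 1.18 ± 0.14 over CM (edgeR adjusted p = 0.00146), a 2.26-fold change. The call of the rise stood with any single library left out (edgeR adjusted p = 0.00268 to 0.00897). The fall lost it without MG-CM replicate 1 (0.0688) or 2 (0.125), CM replicate 1 (0.0633) or 2 (0.0582), or CM-JAKi replicate 2 (0.0529), all edgeR adjusted p. Against MG-CM, CM-JAKi was higher in 3 of 3 pairs by 0.57 ± 0.14 and was called by DESeq2 (adjusted p = 0.0106) and not by edgeR (adjusted p = 0.121). Its near-identical copy Il11ra2 had 0 to 9 counts per library, and estimated counts can divide reads between the 2 genes.

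**Figure D2:**
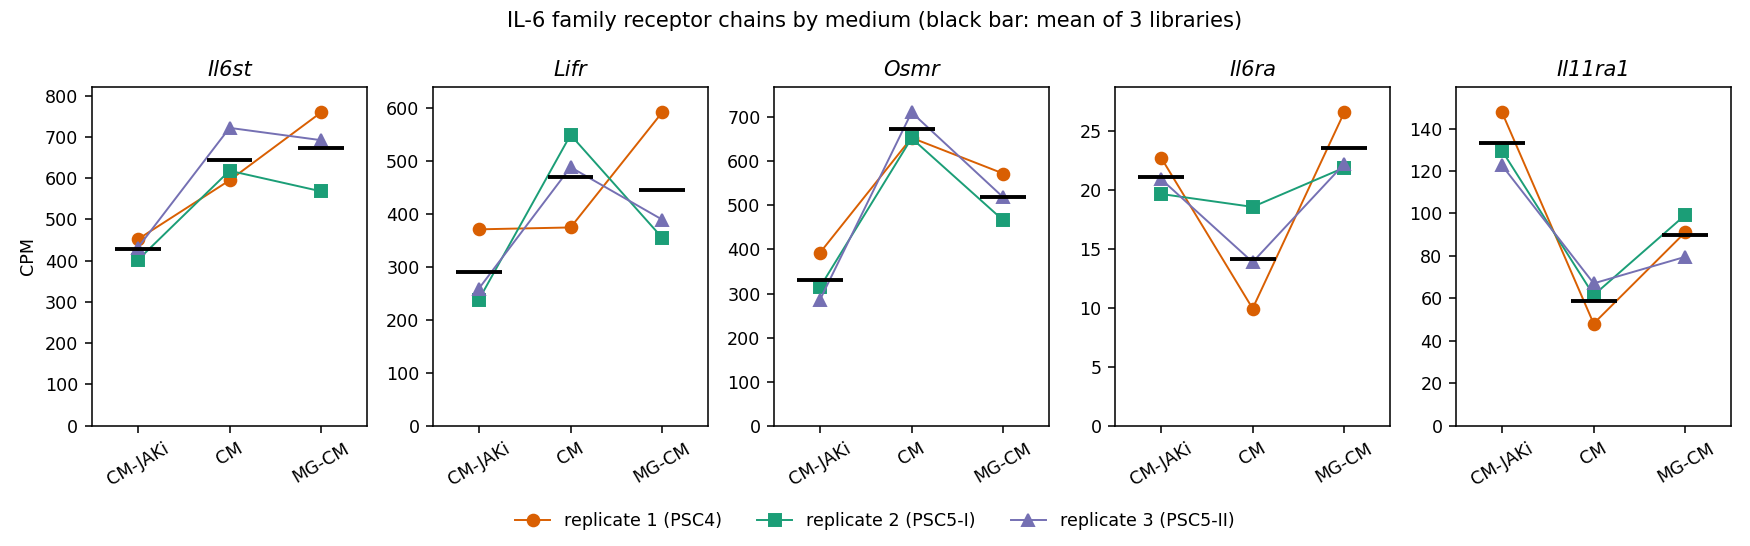
Level of each receptor chain in CPM (linear axis from 0, a separate range per gene) in the 9 libraries, drawn as for the ligands. Il6st and Osmr are lowest in CM-JAKi in each pair, Il11ra1 is highest there, Il6ra is lowest in CM, and the Lifr line of PSC4 runs against those of PSC5.

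Counted by non-overlapping libraries, 7 of the 9 genes separated CM from MG-CM, against 32.7% of all genes, with 5 higher and 2 lower, against 16.0% and 16.8%. Between CM-JAKi and CM it was 6, against 38.3%, with 2 higher and 4 lower, against 20.1% and 18.3%. Between CM-JAKi and MG-CM it was 6, against 17.1%, with 3 higher and 3 lower, against 8.87% and 8.24%. The median log2 fold change of the 9 was 0.37 in CM over MG-CM, -0.70 in CM-JAKi over CM and -0.16 in CM-JAKi over MG-CM, and that of all genes 0.0058, 0.0080 and 0.0054. Every pair of these comparisons shares the libraries of 1 group, so they are not independent of each other. Of the 27 tests of whether PSC4 and PSC5 differ (9 genes in 3 comparisons), edgeR called 0 after adjustment over all genes, against 0.228%, 0.367% and 0.00% of all genes in CM over MG-CM, CM-JAKi over CM and CM-JAKi over MG-CM. An unadjusted p under 0.05 was found for 4, 4 and 1 of the 9 genes in these comparisons, against 15.5%, 12.9% and 3.86% of all genes. PSC4 has 1 library per group, taken to vary like those of PSC5.

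**Figure D3:**
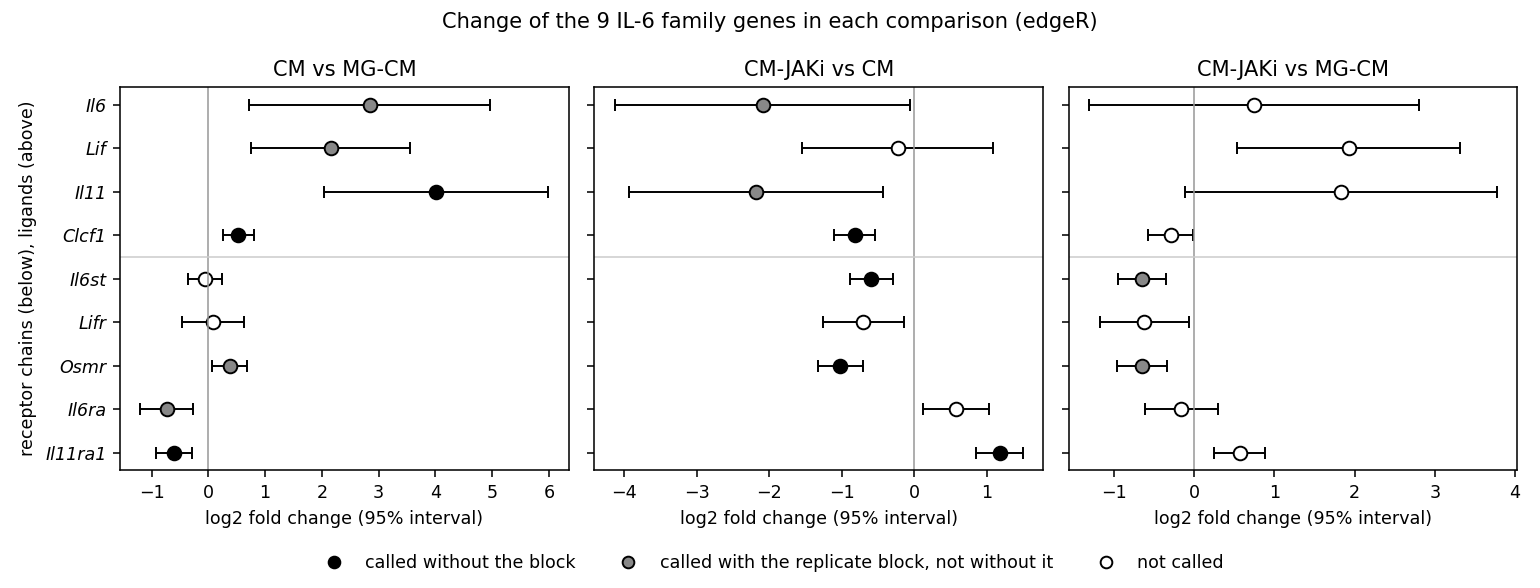
Log2 fold change of the 9 genes with its 95% interval in the 3 comparisons, ligands above and receptor chains below the grey line. Black points were called by edgeR, grey points by edgeR with the replicate block but not without it, and open points by neither of these 2 fits. Ligands lie right of 0 in CM over MG-CM, and Il11ra1 and Il6ra lie opposite to Osmr and the ligands in the first 2 comparisons.

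To set the genes beside each other, CPM was divided by the length of the longest protein-coding transcript in GENCODE M21, 1847 to 9655 bases. On this scale (CPM per kilobase) Osmr, Il6st, Lifr and Il11ra1 were above the 4 cytokines in every group. In MG-CM Osmr led with 94.5 ± 9.67, followed by Il6st (77.6 ± 11.2), Lifr (46.1 ± 13.3) and Il11ra1 (44.8 ± 4.94), then Clcf1 (14.6 ± 0.542), Il6ra (2.73 ± 0.303), Lif (1.33 ± 0.339), Il6 (0.979 ± 0.235) and Il11 (0.190 ± 0.112; mean ± SD, n = 3). The libraries of Osmr and Il6st overlapped, as did those of Lifr and Il11ra1 and those of Lif and Il6, and the other neighbours in this order did not. In CM Il6 averaged 7.02 ± 5.13, Lif 5.93 ± 4.27 and Il11 3.08 ± 2.92, and these 3 overlapped with each other. Il6ra, the lowest in CM at 1.64 ± 0.499, overlapped with Il6 and Il11. Above them stood Osmr (122 ± 6.12), Il6st (74.3 ± 7.80), Lifr (48.8 ± 9.19), Il11ra1 (29.3 ± 4.85) and Clcf1 (21.0 ± 2.04), whose libraries did not overlap with those of a neighbour. In CM-JAKi Il11ra1 (66.3 ± 6.42) and Osmr (60.3 ± 10.1) came first and overlapped, and the order of these 2 turns round when all annotated exons are counted as the length. They were followed by Il6st (49.4 ± 2.90), Lifr (30.0 ± 7.38), Clcf1 (11.9 ± 1.72), Lif (5.06 ± 3.18), Il6ra (2.44 ± 0.180), Il6 (1.64 ± 2.01) and Il11 (0.674 ± 0.457). There Osmr overlapped with Il6st, as did each neighbouring pair from Lif down to Il11.

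**Figure D4:**
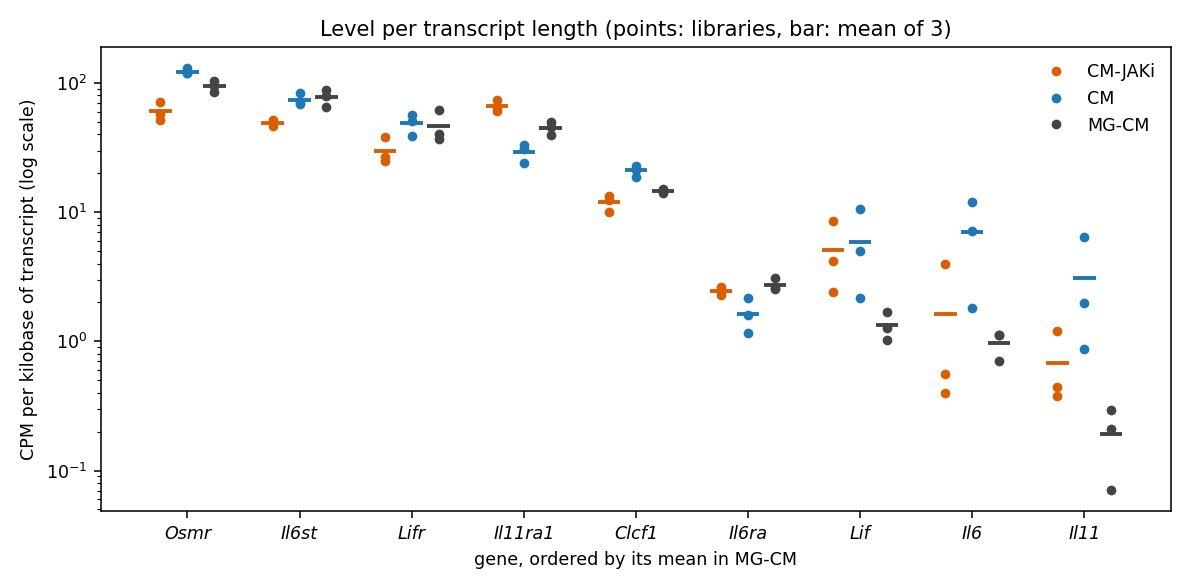
Level of the 9 genes per transcript length in CPM per kilobase (log axis), ordered by the mean in MG-CM, with a point for each library and a bar for the mean of 3. Osmr, Il6st, Lifr and Il11ra1 lie at the top in all 3 groups and Il6, Lif and Il11 spread more than the others in CM-JAKi and CM.

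Other genes of the pathway were taken from 6 lists. These were chosen with earlier results of these data known, so their counts and medians are a description only. Of 12 other ligands and receptors of the family, 10 were in the table and 6 passed the filter, and edgeR called 0 of 6 in any comparison, where 0 had an unadjusted p under 0.05, DESeq2 called 0 and the block called Cntf alone (higher in CM than in MG-CM and lower in CM-JAKi than in CM). The median log2 fold change of the 6 was -0.26 in CM over MG-CM, -0.07 in CM-JAKi over CM and -0.09 in CM-JAKi over MG-CM. Cntf, a ligand of the CNTF receptor, averaged 3.75 ± 0.990 CPM in CM-JAKi, 5.29 ± 0.662 CPM in CM and 3.68 ± 0.797 CPM in MG-CM. Ctf1, which encodes cardiotrophin 1, averaged 3.36 ± 0.599 CPM in CM-JAKi, 2.63 ± 0.638 CPM in CM and 2.43 ± 0.693 CPM in MG-CM (SD, n = 3). The CNTF receptor gene Cntfr lay at 0.708 to 2.87 CPM over the 9 libraries, and Il27ra, a receptor chain of interleukin 27, at 2.13 to 4.67 CPM. Il31ra, which pairs with Osmr to bind interleukin 31, was at 4.13, 4.52 and 2.78 CPM in CM-JAKi, 0.104, 7.28 and 11.4 CPM in CM, and 18.3, 11.4 and 20.2 CPM in MG-CM. Ctf2, Il27, Ebi3 and Il11ra2 had at most 10 counts in a library.

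Of 12 signal transducers of the shared receptor, 1 rose and 1 fell in CM over MG-CM, against 4.85% and 5.39% of all genes. The median log2 fold change was 0.11. With the inhibitor 2 rose and 5 fell (median -0.18), against 10.1% and 8.93%. With the block 3 were higher and 2 lower in CM over MG-CM, against 11.6% and 12.8%. In CM-JAKi over CM the block called 3 higher and 5 lower, against 18.6% and 15.6%. Jak2, which encodes one of the kinases that gp130 uses, fell in CM-JAKi to 150 ± 25.8 CPM, against 411 ± 144 CPM in CM (log2 fold change -1.45 ± 0.28, edgeR adjusted p = 0.0103). Stat3 fell there by 0.51 ± 0.11 (edgeR adjusted p = 0.0147) and Stat5a by 0.71 ± 0.11 (edgeR adjusted p = 0.00423). The adaptor genes Shc1 and Gab1 rose there by 0.45 ± 0.10 and 0.69 ± 0.17 (edgeR adjusted p = 0.0156 and 0.0233). In CM over MG-CM Stat5a rose by 0.63 ± 0.11 (edgeR adjusted p = 0.0132) and the adaptor Gab1 fell by 0.62 ± 0.17 (edgeR adjusted p = 0.0491), while the difference for Stat3 was 0.24 ± 0.11 and was not called (edgeR adjusted p = 0.184). Between CM-JAKi and MG-CM edgeR called 0 of 12, with 4 lower at an unadjusted p under 0.05 (5.31% of all genes). The block called 3 lower (2.40% of all genes) and DESeq2 2 lower (2.19%).

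Of 8 negative regulators, 2 rose and 1 fell in CM over MG-CM, against 4.85% and 5.39% of all genes. The median log2 fold change was -0.12. In CM-JAKi 4 fell from CM, against 8.93% (median -0.38), and 3 fell from MG-CM, against 0.720% (median -0.16). The block called a further gene higher in CM than in MG-CM, Ptpn6, a phosphatase gene (log2 fold change 1.02, edgeR adjusted p = 0.0458, 0.110 without the block). Socs3, the feedback inhibitor that binds gp130, was at 30.4, 32.6 and 34.9 CPM in CM-JAKi, 141, 99.5 and 169 CPM in CM, and 82.6, 68.0 and 77.8 CPM in MG-CM. Its 3 groups did not overlap, with edgeR adjusted p of 0.000349 for CM-JAKi against CM, 0.0226 for CM against MG-CM and 0.0178 for CM-JAKi against MG-CM. Socs2 was lowest in CM-JAKi too, at 2.13 ± 0.0639 CPM, against 8.57 ± 2.27 CPM in CM and 23.4 ± 2.97 CPM in MG-CM, so it fell in CM where Socs3 rose. The phosphatase gene Ptpn2 rose by 0.54 ± 0.13 in CM over MG-CM (edgeR adjusted p = 0.0364).

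Of 15 STAT3 targets tested, 6 rose in CM over MG-CM and 0 fell, against 4.85% and 5.39% of all genes. The median log2 fold change was 0.97. In CM-JAKi 11 fell from CM and 0 rose (median -1.15), against 8.93% and 10.1%. The block called 11 higher in CM over MG-CM, against 11.6%, and 12 lower in CM-JAKi from CM, against 15.6%. Lrg1, an acute phase glycoprotein gene, averaged 0.156 ± 0.0575 CPM in CM-JAKi, 3.56 ± 0.840 CPM in CM and 0.881 ± 0.332 CPM in MG-CM. Il4ra, a receptor chain of interleukin 4, averaged 90.2 ± 12.8 CPM in CM-JAKi, 418 ± 115 CPM in CM and 213 ± 44.6 CPM in MG-CM, and both genes passed the test in all 3 comparisons. Bcl3 and Junb rose in CM by 0.99 ± 0.20 and 1.10 ± 0.26 (edgeR adjusted p = 0.0223 and 0.0331), and the kinase gene Pim1 and Myc fell with the inhibitor by 1.14 ± 0.13 and 1.19 ± 0.19 (edgeR adjusted p = 0.0010 and 0.00548). Of Saa3 and Lcn2, secreted acute phase proteins, edgeR called neither with the inhibitor (log2 fold changes in CM-JAKi over CM -0.25 ± 0.74 and -0.23 ± 0.67, adjusted p = 0.841 and 0.836). Hp and Steap4 were not called there by edgeR either. Against MG-CM, 2 of the 15 fell in CM-JAKi (Lrg1 and Il4ra, median of the list -0.36), where 0.720% of all genes fell. The block called 3 higher and 4 lower, against 1.85% and 2.40%.

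On the list of inducers of Il6 and Lif, 10 of 12 genes were tested. It also held Zc3h12a and Zfp36, which encode repressors of cytokine mRNA, not inducers. In CM over MG-CM 1 gene rose (Nfkbiz, 1.04 ± 0.22, edgeR adjusted p = 0.0241), against 4.85% of all genes. In CM-JAKi 1 fell from CM (Il1rap, -1.41 ± 0.33, edgeR adjusted p = 0.021), against 8.93%. The medians of the list were 0.53 and -0.44 in these comparisons. The block called 4 higher in the first and 7 lower in the second, against 11.6% and 15.6%. Between CM-JAKi and MG-CM edgeR called 0 (median -0.06). The unadjusted p of 3 higher and 2 lower genes was under 0.05, against 5.36% and 5.31% of all genes. DESeq2 called 1 higher (Zc3h12a) and 1 lower (Zfp36), against 1.37% and 2.19%. The block called 1 higher (Nfkbiz) and 1 lower (Zfp36), against 1.85% and 2.40%. Nfkbiz encodes a nuclear cofactor of NF-kB needed for Il6 induction, and Il1rap the accessory chain of the interleukin 1 receptor. Il1a, which encodes interleukin 1 alpha, did not pass the filter, with 1, 2 and 1 counts in CM-JAKi replicates 1, 2 and 3, 63, 1 and 7 counts in CM, and 1, 1 and 1 counts in MG-CM. Among the CM libraries, replicate 1 was the highest, replicate 3 next and replicate 2 the lowest for Il1a as for Il6, Lif, Il11 and Clcf1. Tnf, Saa3, Lcn2, Jak2 and Junb had that order too, Socs3, Il4ra and Myc did not, and its cause was not tested. Tnf had 12, 1 and 3 counts in CM-JAKi, 55, 10 and 13 in CM, and 5, 1 and 1 in MG-CM (log2 fold change in CM over MG-CM 3.35 ± 1.05, edgeR adjusted p = 0.0764, 0.00278 with the block). Of 4 genes of receptor shedding, edgeR called 0 in any comparison, and DESeq2 called 0. At an unadjusted p under 0.05 edgeR had 2, 0 and 2 higher in CM over MG-CM, CM-JAKi over CM and CM-JAKi over MG-CM. The shares of all genes higher there were 13.9%, 18.2% and 5.36%, and the medians of the list 0.19, 0.08 and 0.22. The block called 1 of the 4, Rhbdf2, higher in CM than in MG-CM (log2 fold change 0.42, edgeR adjusted p = 0.0426), against 11.6%. The sheddase gene Adam17, whose product releases the soluble IL-6 receptor, averaged 188 ± 25.8 CPM in CM-JAKi, 174 ± 4.61 CPM in CM and 148 ± 3.12 CPM in MG-CM.

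The genes most like each member over the 9 libraries were found by Pearson's correlation of log2 CPM among the 10230 named genes whose log2 CPM averaged 2 or more. These libraries share the lines PSC4 and PSC5 and 3 media, so the values describe likeness of pattern only. For Il6 they were Ivns1abp, Stc1 and Smarca5 (0.985, 0.974 and 0.968). For Lif they were Ptgs2, which encodes the prostaglandin enzyme cyclooxygenase 2, Lcn2 and Dbi (0.971, 0.936 and 0.933). Il11 was most like Pold4, Syt7 and the desaturase gene Scd1 (0.979, 0.960 and 0.958), and Clcf1 most like Lmcd1, Ttpal and Gcnt2 (0.985, 0.983 and 0.982). Among the receptors, Osmr was most like Pde1a, Flot1 and Dok1 (0.992, 0.983 and 0.977), Il6st like Stt3b, Ammecr1 and Scaf8 (0.976, 0.961 and 0.960), and Lifr like Rab27b, Dnajc13 and Rhebl1 (0.948, 0.940 and 0.935). Il6ra was most like Sorbs3, Sytl2 and Ahnak (0.979, 0.968 and 0.962), and Il11ra1 like D0H4S114, Ankrd44 and Cdk7 (0.985, 0.980 and 0.979).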

How the data were processed

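Ribosomal RNA-depleted, strand-specific total RNA libraries were made from 9 cultures, per the labels' protocols. STAR (2.5.1b), DESeq2 and RSEM (1.2.29), with the builds NCBIM37 and mm9, are listed without roles, per the submitters' processing notes. The deposited values were read as estimated counts made by the authors (whole numbers, not scaled between libraries), because RSEM is named. How the values were rounded is not given in the sources used here.

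In R 4.3.3, genes were filtered with filterByExpr (minimum count 10, minimum total 15) and scaled by TMM. Groups were compared in 1 quasi-likelihood fit of edgeR 4.0.16 to all 9 libraries, which was checked on simulated data. Standard errors are the log2 fold change over the square root of F, and intervals use the t distribution of that fit at 95% for 1 gene. Log2 CPM used a prior count of 2. Replicates are separate cultures with separate medium sources.

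Same-numbered libraries share a stellate line, per the labels. Their deviations from the group means correlated at 0.291 to 0.680 in 9 pairs, against -0.536 to 0.279 in 18 others, so the replicate block is printed where it changes a call. Among those others, pairs with replicate 1 (PSC4) lay at -0.536 to -0.214. Pairs of replicates 2 and 3, both PSC5, lay at 0.0087 to 0.279. Alternatives were DESeq2 1.42.0, other scalings, no filter, a line term, fits of the compared groups alone and fits without libraries. Replicates of a group differed by 15.3 to 109 chi-square per degree of freedom. With library size alone the median change of all genes moved to -0.0663 in CM over MG-CM, 0.103 in CM-JAKi over CM and 0.0291 in CM-JAKi over MG-CM.

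The members and lists were chosen with earlier results of these data known. The named genes were all members, up to 4 genes of each list with the smallest p in a comparison, and the 3 genes most like each member. Saa3, Lcn2, Hp and Il1a were named after their values were seen, and other list genes are given by counts or by name alone. For 2 genes of the lists no value is reported here. Transcript lengths came from GENCODE M21 and promoters from RefSeq, both on GRCm38, which is not the build named for the counts, so no coordinates were joined to the counts.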

Additional observations from a re-analysis of the deposited data

Results flagged for a closer look

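In 3 cases the PSC4 pair moved one way and both PSC5 pairs the other. For each, the response in PSC4 minus that in PSC5 was tested as an interaction in edgeR, with p adjusted over all genes, and edgeR called none of the 3. PSC4 had 1 library in each group.

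Lifr in CM over MG-CM changed by -0.66 in the PSC4 pair and by 0.63 and 0.33 in the PSC5 pairs on the log2 scale. The difference between the lines was -1.14 ± 0.18 (edgeR adjusted p = 0.0833).

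Il6st in CM over MG-CM changed by -0.35 in the PSC4 pair and by 0.12 and 0.06 in the PSC5 pairs. The difference between the lines was -0.44 ± 0.23 (edgeR adjusted p = 0.408).

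Il6 in CM-JAKi over MG-CM changed by 1.80 in the PSC4 pair and by -0.79 and -0.96 in the PSC5 pairs. The difference between the lines was 2.77 ± 1.23 (edgeR adjusted p = 1.00).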

How the results depend on the processing

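Of 594 recomputed log2 fold changes (9 genes, 3 comparisons, 22 settings each), 484 kept their direction and their side of the threshold, 39 kept the direction and lost the call, 57 kept it and gained one, and 14 turned round. All 14 belonged to changes that edgeR did not call, and the cause was not tested. Lifr in CM over MG-CM (0.08) was -0.047 when CM replicate 2 was left out, -0.059 or -0.0087 when it was MG-CM replicate 2 or 3, -0.18 and -0.036 without all of replicate 2 and 3, and -0.14 with the replicate block without replicate 2, with highs of 0.48 and 0.48 without replicate 1. Il6st in CM over MG-CM (-0.06) was 0.038 without MG-CM replicate 1, 0.085 without all of replicate 1 and 0.087 with the block as well, with lows of -0.17 and, with the block, -0.14. Lif in CM-JAKi over CM (-0.23) was 0.10 without CM-JAKi replicate 2 and 0.48 without CM replicate 1, with a low of -0.85. Il6 in CM-JAKi over MG-CM (0.75) was -1.04 without CM-JAKi replicate 1, -0.93 without all of replicate 1 and -0.91 with the block as well, with highs of 1.25 and, with the block, 0.69. The block changed no other call of a member than those given with the results.

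Counts of calls moved more. Between CM and MG-CM, edgeR called 660 genes higher and 734 lower. DESeq2 called 1192 and 1294, the replicate block 1577 and 1748, the cell line term 1551 and 1665, and the fit of the 2 groups alone 362 and 431. Of the 9 members 2 were called higher and 1 lower, 5 and 2 with DESeq2, the block or the line term, 1 higher with library size alone and 0 lower in the fit of the 2 groups alone. Between CM-JAKi and CM, 1369 genes were higher and 1216 lower, 2529 and 2126 with the block, 2422 and 2110 with the line term, and 836 higher in the fit of the 2 groups alone. Of the members 1 was higher and 3 lower, 2 and 5 with DESeq2, 5 lower with the block and 6 lower with the line term. Between CM-JAKi and MG-CM, 39 genes were higher and 98 lower, 194 and 310 with DESeq2, 252 and 327 with the block, and 229 and 294 with the line term. Of the members 0 were called, 2 and 2 with DESeq2, and 2 lower with the block or the line term. With libraries left out, genes called higher and lower ranged from 6 to 837 and 2 to 876 in CM over MG-CM, 76 to 1562 and 180 to 1408 in CM-JAKi over CM, and 0 to 216 and 0 to 249 in CM-JAKi over MG-CM. Members ranged from 0 to 4 and 0 to 1, 0 to 2 and 0 to 6, and 0 and 0 to 2. With the replicate block and a replicate number left out, genes ranged from 243 to 1342 and 237 to 1446, 764 to 2212 and 668 to 1981, and 6 to 510 and 15 to 485, and members from 0 to 6 and 0 to 1, 1 and 2 to 6, and 0 to 2 and 0 to 3. Without all of replicate 2, Clcf1, Osmr and Il11ra1 lost their calls between CM-JAKi and CM (edgeR adjusted p = 0.0701, 0.0798 and 0.053), and without all of replicate 3 Clcf1 and Osmr did (0.0627 and 0.0603).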
